A study of Mus musculus with 4 samples.

Results

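The genes described here are 40 cell cycle genes, picked by symbol among the 30905 genes of the deposited matrix: 25 that are known to peak in the G2 and M phases (G2M members) and 15 that are known to peak in the S phase (S members). All 40 were found, and no measured value was used to pick them. They were followed through single-cell RNA-seq of mouse heart grafts placed in the abdomen of C57BL/6J recipients and removed on day 5 after transplantation. The series holds 2 allogeneic grafts, Balb/C hearts in C57BL/6J recipients, and 2 syngeneic grafts, C57BL/6J hearts in C57BL/6J recipients, all from young adult males. Grafts were digested with enzymes and red cells were lysed, so donor heart cells and recipient leukocytes stand in the same libraries. The 4 libraries were deposited as 1 merged matrix in which cells differ only by a number, 1 to 4, at the end of the barcode. No source used here says which number belongs to which graft, so the libraries are called 1 to 4, no allogeneic graft was set against a syngeneic one, and no p-value is given.

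A dividing cell copies its DNA in S phase and separates the copies in mitosis. The genes for the replication machinery are switched on before and during S phase by E2F factors, while the genes for the mitotic machinery are held down by the DREAM complex in resting cells and switched on later, by B-MYB and FOXM1. Because most mitotic transcripts are absent from resting cells, Mki67 and Top2a are used in tissue as markers of cells in cycle. In a rejected organ, clonal expansion of T cells is the classical setting in which they appear, and endothelial cells, fibroblasts and resident macrophages of an injured heart are also known to divide.

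The members fall into a few working groups. Mki67 coats mitotic chromosomes, and Top2a untangles sister DNA strands. Cdk1 is the mitotic kinase, with Ccna2, Ccnb1 and Ccnb2 as its cyclins, and Plk1, Aurka, Aurkb and Birc5 are mitotic kinases and a subunit of the Aurora B complex. Cenpa, Cenpe and Cenpf act at the centromere and kinetochore, Bub1 and Bub1b are spindle checkpoint kinases, and Cdc20 and Ube2c belong to the ubiquitin system that ends mitosis. Kif11, Kif20b and Kif23 are kinesin motors, Prc1, Tpx2, Nusap1 and Hmmr bind spindle microtubules, and Stmn1 destabilises microtubules. Among the S members, Mcm2 to Mcm7 form the replicative helicase, Gins2 is part of its active form, Cdc6 loads it and Pcna is the sliding clamp of the polymerases. Tyms, Rrm1 and Rrm2 make deoxynucleotides, Ung removes uracil from DNA, Slbp processes histone transcripts and Ccne2 is an E-type cyclin.

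The promoters of 6 members are shown because 2 of them, Mki67 and Top2a, mark the cells counted below, 2 encode the mitotic kinase and a cyclin, and 2 are helicase genes with E2F motifs. Each is the stretch of 250 bases before the RefSeq transcription start in GRCm38.p6, read 5′ to 3′ on the strand of the gene. Capitals mark CCAAT on either strand, the CHR motif of mitotic genes (TTTGAA or TTTAAA, either strand) and E2F motifs (TTTCGCGC, TTTGGCGC or TTTCCCGC, either strand). The stretches are chr7:135716380-135716629, chr11:99024190-99024439, chr10:69352913-69353162 and chr13:100786487-100786736 on the minus strand, chr8:75109259-75109508 on the plus strand and chr1:128359706-128359955 on the minus strand.
Mki67: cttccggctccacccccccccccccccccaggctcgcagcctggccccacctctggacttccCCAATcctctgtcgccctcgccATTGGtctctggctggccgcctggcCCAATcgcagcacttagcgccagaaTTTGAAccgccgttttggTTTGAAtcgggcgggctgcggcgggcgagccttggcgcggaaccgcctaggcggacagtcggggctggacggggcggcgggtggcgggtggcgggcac
Top2a: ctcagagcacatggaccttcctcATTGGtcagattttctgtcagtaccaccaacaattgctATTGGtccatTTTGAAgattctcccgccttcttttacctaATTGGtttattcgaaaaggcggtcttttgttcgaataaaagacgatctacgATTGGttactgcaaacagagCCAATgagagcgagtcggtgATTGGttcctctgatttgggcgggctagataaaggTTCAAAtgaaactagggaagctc
Cdk1: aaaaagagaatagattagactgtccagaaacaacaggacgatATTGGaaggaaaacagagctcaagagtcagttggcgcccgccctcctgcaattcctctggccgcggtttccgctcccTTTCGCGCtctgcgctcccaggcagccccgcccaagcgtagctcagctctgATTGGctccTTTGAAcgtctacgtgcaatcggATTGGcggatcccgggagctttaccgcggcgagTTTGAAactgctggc
Ccnb1: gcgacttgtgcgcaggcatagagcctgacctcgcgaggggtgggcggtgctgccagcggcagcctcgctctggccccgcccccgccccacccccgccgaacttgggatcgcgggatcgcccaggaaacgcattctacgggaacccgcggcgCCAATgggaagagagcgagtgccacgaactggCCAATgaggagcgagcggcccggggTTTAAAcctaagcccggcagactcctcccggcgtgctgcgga
Mcm5: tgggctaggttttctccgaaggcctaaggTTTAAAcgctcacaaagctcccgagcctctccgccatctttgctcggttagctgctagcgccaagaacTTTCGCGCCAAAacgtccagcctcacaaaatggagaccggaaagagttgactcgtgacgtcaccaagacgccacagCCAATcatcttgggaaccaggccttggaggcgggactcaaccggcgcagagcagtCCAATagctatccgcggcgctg
Mcm6: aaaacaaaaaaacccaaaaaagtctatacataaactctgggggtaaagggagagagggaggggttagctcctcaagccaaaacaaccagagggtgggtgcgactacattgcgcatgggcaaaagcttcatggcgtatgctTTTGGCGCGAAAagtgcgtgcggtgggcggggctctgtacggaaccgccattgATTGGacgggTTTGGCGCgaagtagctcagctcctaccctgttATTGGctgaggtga
Top2a held 6 CCAAT and 2 CHR motifs, Mki67 held 3 and 2, and Ccnb1 held 2 and 1. Cdk1 held 3 CCAAT and 2 CHR motifs beside 1 E2F motif. Mcm6 held 3 E2F motifs and Mcm5 held 2, and in each of these promoters 1 overlapping pair was counted as 2.

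Over 300 bases, from 250 before to 50 after the start, 21 of the 25 G2M members and 12 of the 15 S members had an entry in the table of promoters. CHR motifs stood in 90.5% of those G2M members, in 25% of the S members and in 30.6% of the 27025 genes of the table. E2F motifs stood in 41.7% of the S members, 4.76% of the G2M members and 2.12% of all genes. CCAAT was found in 85.7% of the G2M members and 75% of the S members, against 41.1% of all genes, and CCAAT together with CHR in 81.0%, 25% and 12.2%. A match is a stretch of letters and not a bound site.

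Of the 53824 deposited cells, 42395 passed the limits of 200 genes and 20% mitochondrial UMIs and were not among the 2231 marked as likely doublets. A UMI is a counted transcript molecule. The cells were grouped without any of the cell cycle genes, so that the members did not shape the groups, and 12 classes were named from marker genes, with 3623 cells left unnamed. Doublets had been marked before this with the cell cycle genes among the genes available, so the members could affect which cells were kept. Few cells were named cardiomyocyte-like, 380 in all, and a shallow cluster of 864 cells with 7 of the 8 cardiomyocyte markers was left unnamed. A cluster of 765 cells with 5 of the 8 granulocyte markers, at a median of 3019 UMIs, was also left unnamed. The libraries differed in depth, with a median of 5325, 4578, 8554 and 11904 UMIs per cell in libraries 1 to 4, and 96020294 to 166079145 UMIs deposited. Of all barcodes, 308 stood in a pair of libraries, and 19 of the 477 kept cells with such a barcode held both Mki67 and Top2a. Different clusters held most of a class in different libraries. Endothelial-like cells were led by a cluster with Aplnr and C1qtnf9 in libraries 1 and 3, one with Timp4 and Car4 in library 2 and one with Ubd, Gbp2b and Cxcl9 in library 4. Macrophage-like cells were led by an Fcrls and Ms4a7 cluster in libraries 1 and 3, an Arg1 and Ccl24 cluster in library 2 and an Ms4a4c and Ly6c2 cluster in library 4. Differences between libraries within these classes therefore carry a difference of cell state, of depth and of graft, which cannot be told apart. In fibroblast-like cells each library had a leading cluster of its own, while T/NK-like, dendritic-like, pericyte-like, smooth muscle-like and Schwann-like cells came from 1 cluster each. Clustered again, however, T/NK-like cells fell into different subsets by library. A subset led by S100a8, Fabp4 and Cd36, with endothelial markers, held 156 of the 162 T/NK-like cells of library 2, and one led by haemoglobin genes, Mb and Myl2 held 87 of 175 in library 1 and 57 of 121 in library 3, against 3 and 1 cells of library 4. Library 4 had 451 cells in a subset led by Ly6c2, Cd8b1 and H2-Aa, with macrophage markers. Without these 3 subsets, a choice made after seeing the data, 81, 5, 52 and 948 T/NK-like cells remained in libraries 1 to 4. Of the 1129 dendritic-like cells of library 4, 946 fell in subsets with markers of another class, at a median of 958 UMIs, and 135 in subsets named dendritic. Of the macrophage-like and dendritic-like cells of library 4 together, 733 fell in a subset with Gzmb, Nkg7 and Trbc1 among its leading genes. Pooled dendritic-like levels therefore include cells with T/NK markers.

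Mki67 was detected in 2999 cells (7.07%), Top2a in 2697 cells (6.36%) and both in 1142 cells (2.69%, exact 95% interval 2.54 to 2.85, which covers counting error only). By library, both were found in 43 cells of library 1 (0.439%), 9 of library 2 (0.0720%), 320 of library 3 (3.42%) and 770 of library 4 (7.17%). The share was low in libraries 1 and 2 and high in libraries 3 and 4, which were also the deeper ones. When each cell was thinned to 1000 UMIs, and the 38421 cells that reach this depth were kept, Mki67 was found in 1.77%, Top2a in 1.64% and both in 0.565%.

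Which classes held the cells with both UMIs rested on library 4. Over all libraries 844 of the 1142 were in the 5 leukocyte classes (73.9%), and without library 4 111 of 372 were (29.8%). These percentages also depend on class size. Macrophage-like cells alone made up 54.7% of library 4, against 5.48%, 7.98% and 12.4% in libraries 1, 2 and 3. T/NK-like cells made up 4.39% of the cells and held 538 (47.1%), and 16 (4.30%) without library 4. Without library 4 endothelial-like cells held the most, 172 (46.2%), of which 169 were of library 3. This class made up 43.0% of library 3 and held 52.8% of its cells with both UMIs. It made up 47.4% of library 1 and 35.9% of library 2, and held 6.98% and 0% of such cells there. The pooled 46.2% thus lay within the range of its class sizes. By library, the share held was above the class size in library 3 and below it in libraries 1 and 2. Over all libraries, macrophage-like cells held 275 (24.1%), endothelial-like cells 176 (15.4%), fibroblast-like cells 82, dendritic-like cells 28, pericyte-like cells 21, Schwann-like cells 10 and smooth muscle-like cells 6. Granulocyte-like cells, which are the offspring of dividing precursors and are not known to divide in tissue, held 2 of 3103 cells (0.0645%), and B-like cells held 1 of 326 (0.307%). Of the 3103 granulocyte-like cells, 2743 were of library 2. None of 380 cardiomyocyte-like cells held both, which allows a share of up to 0.789%, and none of 227 erythroid-like cells, which allows up to 1.32%.

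**Figure D1:**
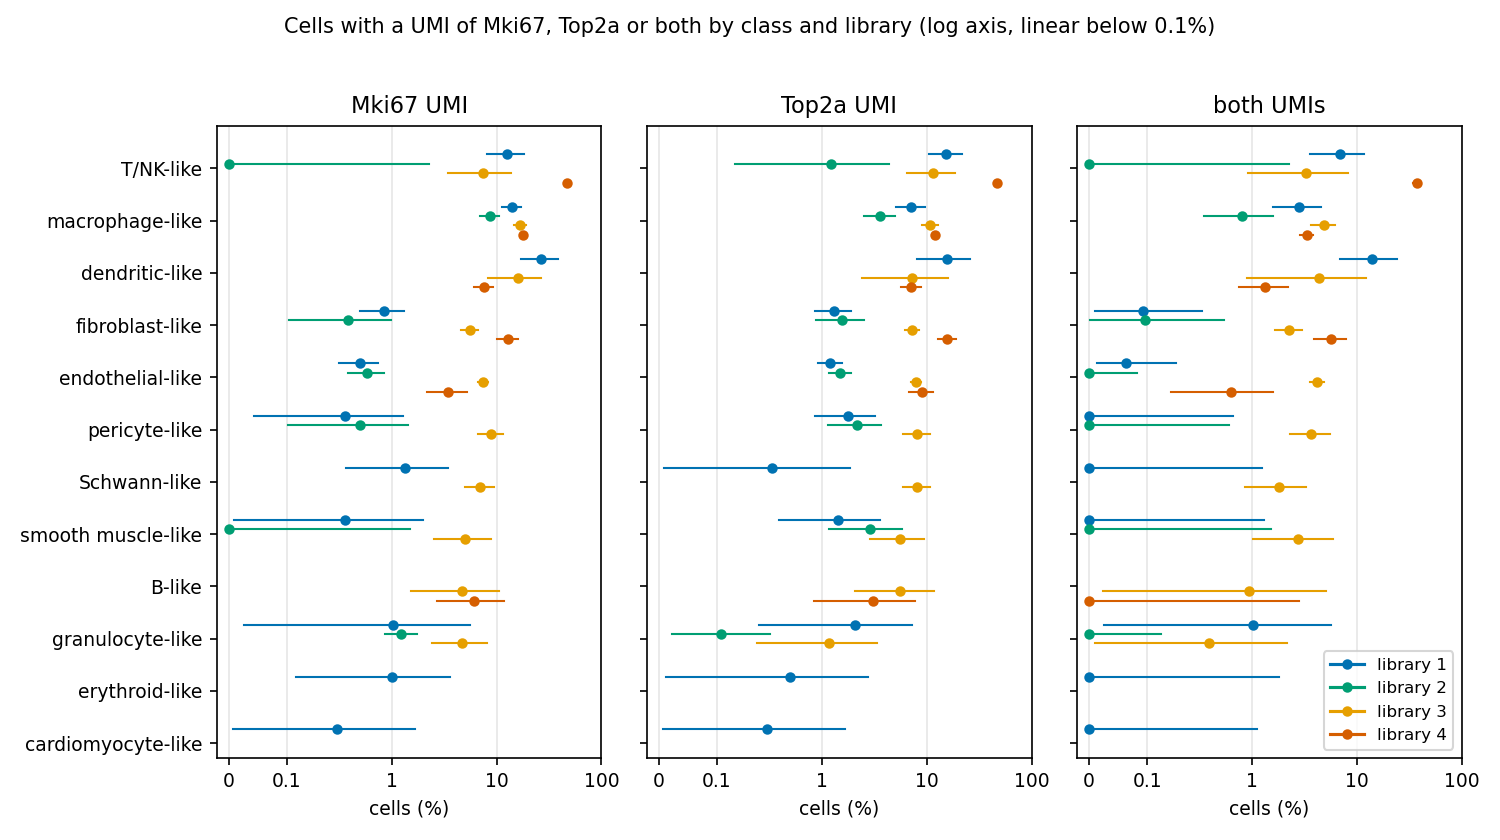
Share of cells (%, log axis that is linear below 0.1%) with a UMI of Mki67, Top2a or both, for each class and library with at least 50 cells. Points are shares and lines are exact 95% intervals of counting error; T/NK-like cells of library 4 stand at 37.2% for both, and those of library 2 at 0.

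In T/NK-like cells, Mki67 was detected in 12.6% of 175 cells of library 1, in 0 of 162 cells of library 2, in 7.44% of 121 cells of library 3 and in 46.5% of 1403 cells of library 4. Top2a was detected in 15.4%, 1.23%, 11.6% and 46.6% of the same cells. Both were found in 12, 0, 4 and 522 cells, or 6.86% (3.59 to 11.7), 0% (0 to 2.25), 3.31% (0.908 to 8.25) and 37.2% (34.7 to 39.8). Library 4 stood above the other 3 libraries for each gene, and its interval did not overlap theirs. The median depth was 6758, 4325, 5494 and 11340 UMIs in these cells. Without the 3 subsets that carried markers of other classes, both were found in 9 of 81 (11.1%, 5.21 to 20.05), 0 of 5, 3 of 52 (5.77%, 1.21 to 15.9) and 416 of 948 cells (43.9%, 40.7 to 47.1), so that library 4 was again above libraries 1 and 3, and library 2 had too few such cells to compare. With all subsets, at 1000 UMIs per cell, both were found in 1.73%, 0%, 0.840% and 8.36%, so that library 4 was again the highest at equal depth. The values of libraries 1 to 3 rest on a few cells or none, and their order is not read. For comparison, granulocyte-like cells, most of them of library 2, had Mki67 in 1.51% and Top2a in 0.258% at a median of 3733 UMIs. At 1000 UMIs the values were 0.673% and 0%.

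At full depth 13.1% of macrophage-like cells had Mki67 without Top2a. At 1000 UMIs the value was 1.88%, below T/NK-like (7.19%) and dendritic-like cells (2.91%) and above the other named classes. Libraries 1 to 4 had a Mki67 UMI in 14.0%, 8.63%, 16.9% and 17.7% of macrophage-like cells, and a Top2a UMI in 7.08%, 3.61%, 10.8% and 12.0%. Both were found in 15 of 537 cells, 8 of 997, 56 of 1160 and 196 of 5872, or 2.79%, 0.802%, 4.83% and 3.34%. Libraries 1, 3 and 4 overlapped in their intervals and library 2 was lower than libraries 3 and 4. Of the macrophage-like and dendritic-like cells of library 2, 724 fell in a subset led by Cxcl3, Lcn2 and S100a8, with 4 of the 8 granulocyte markers. Macrophage-like cells were deep, with medians of 11637 to 14835 UMIs. At 1000 UMIs the share of macrophage-like cells with both fell to 0.803%, 0.102%, 0.706% and 0.136%. Dendritic-like cells had both in 10 of 71 cells of library 1 (14.1%), 3 of 69 of library 3 (4.35%) and 15 of 1129 of library 4 (1.33%), at median depths of 16860, 13596 and 1095 UMIs. In the subsets named dendritic, the counts were 8 of 59 (13.6%, 6.04 to 24.98), 3 of 61 (4.92%, 1.03 to 13.7) and 11 of 135 (8.15%, 4.14 to 14.1) at medians of 17013, 13596 and 11920 UMIs, and the intervals overlapped.

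Outside the leukocytes the cells with both UMIs came almost entirely from libraries 3 and 4. Among endothelial-like cells there were 3 of 4651 in library 1, 0 of 4481 in library 2, 169 of 4024 in library 3 and 4 of 639 in library 4, so that library 3 (4.20%, 3.60 to 4.87) stood above the other 3. Of the 639 endothelial-like cells of library 4, 626 fell in a subset led by Ubd and Serpina3g, with 3 of the 9 T/NK markers. Among fibroblast-like cells both were found in 2 of 2146, 1 of 1036, 47 of 2086 (2.25%) and 32 of 562 (5.69%). Of the 562 fibroblast-like cells of library 4, 172 fell in a subset led by Gzma and Nkg7, at a median of 1320 UMIs. Another 59 of them fell in a subset with macrophage markers. All 21 pericyte-like cells with both UMIs (3.69% of 569), all 10 such Schwann-like cells (1.80% of 556) and all 6 such smooth muscle-like cells (2.75% of 218) were of library 3. Pericyte-like cells of libraries 1 and 2 had 0 of 563 and 0 of 604. The endothelial-like cells of library 3 had a median of 6222 UMIs, near the 5565 of library 2, and at 1000 UMIs library 3 kept 1.16% and library 2 0%.

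Summed levels are given as a share of all UMIs that are not mitochondrial, in the cells of a class. That of the 25 G2M members was highest in T/NK-like cells with all libraries pooled, but without library 4 the highest was 0.0950%, in dendritic-like cells. With equal weight for libraries the T/NK-like value was 0.145%. In library 3 smooth muscle-like (0.115%) and Schwann-like cells (0.0945%) were above T/NK-like cells (0.0862%). These T/NK-like levels include the subsets with markers of other classes, 94 of 175, 157 of 162 and 69 of 121 cells in libraries 1 to 3. Without those subsets T/NK-like cells were at 0.178% in library 1 and 0.119% in library 3. Dendritic-like cells, without their own subsets of that kind, were at 0.126% and 0.0791%. The level of the 15 S members varied less between libraries. G2M members took 0.312% of the UMIs of T/NK-like cells, 0.0921% of dendritic-like cells, 0.0748% of Schwann-like cells, 0.0329% of endothelial-like cells, 0.0274% of macrophage-like cells and 0.00643% of granulocyte-like cells. S members took 0.164% in T/NK-like cells, 0.0452% in dendritic-like cells, 0.0445% in endothelial-like cells, 0.0277% in macrophage-like cells and 0.0102% in granulocyte-like cells. Without Stmn1, which is also used by cells at rest such as Schwann cells and neurons, the G2M share in T/NK-like cells was 0.261%.

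Within T/NK-like cells the G2M share was 0.127% in library 1, 0.0244% in library 2, 0.0862% in library 3 and 0.341% in library 4. The S share of the same cells was 0.0831%, 0.0430%, 0.0684% and 0.176%, in the same order of libraries. Without the 3 subsets with markers of other classes, libraries 1, 3 and 4 had G2M shares of 0.178%, 0.119% and 0.343% and S shares of 0.0841%, 0.0874% and 0.1904%. In endothelial-like cells the G2M share was 0.0115%, 0.00644%, 0.0777% and 0.00945%, and library 3 was above the rest. The S share of the endothelial-like cells was 0.0430%, 0.0444%, 0.0490% and 0.0296%, so library 4 was the lowest and the other 3 were close. In macrophage-like cells the G2M share was 0.0594%, 0.00944%, 0.0687% and 0.0205%, with libraries 1 and 3 high, while the S share ran only from 0.0229% to 0.0353%. In fibroblast-like cells the G2M share was 0.00472%, 0.00187%, 0.0380% and 0.0492%, and the S share ran from 0.0221% to 0.0286%. In smooth muscle-like cells of library 3 the G2M share was 0.115%, and 6 of 218 cells held 90.9% of the UMIs of the G2M members other than Mki67 and Top2a. In granulocyte-like cells of library 1 (0.0689%), 1 of 97 cells held 82.5% of them.

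**Figure D2:**
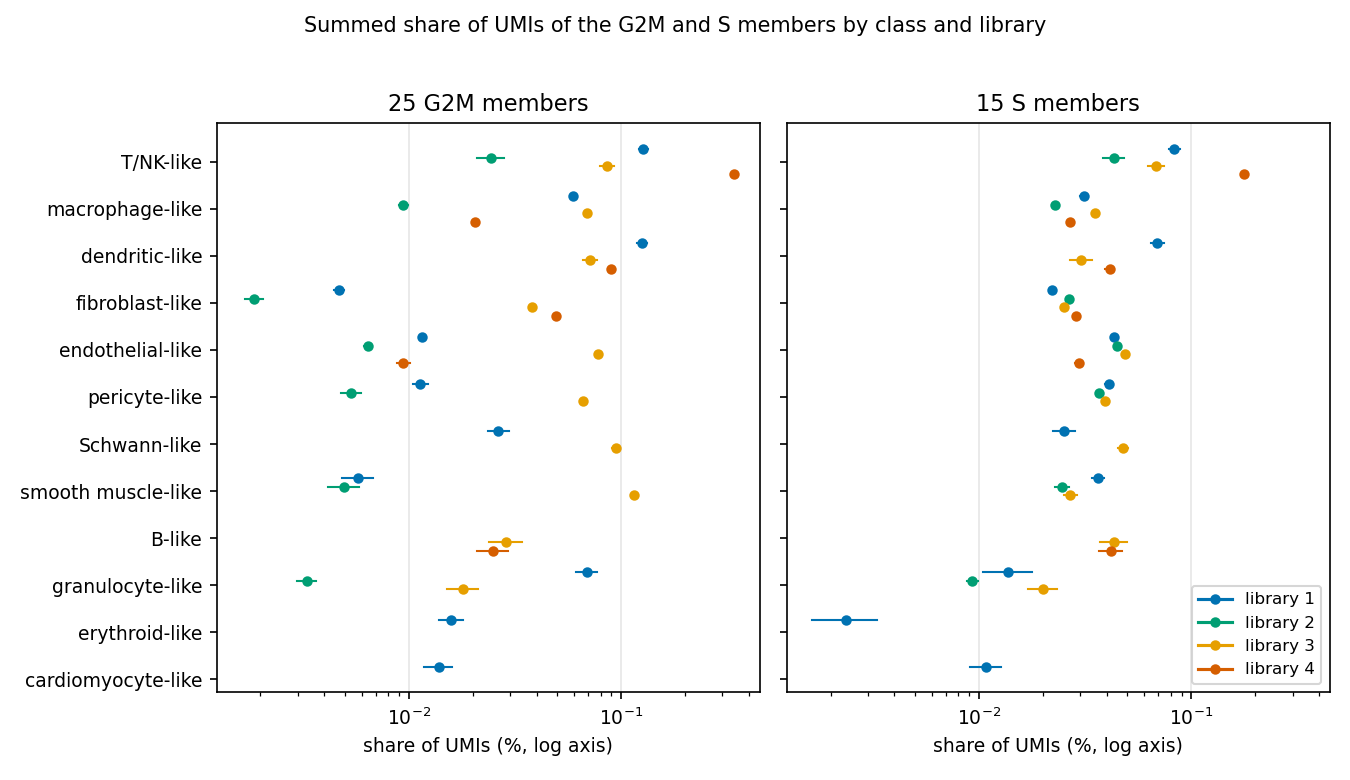
Summed share of UMIs (%, log axis) of the 25 G2M members and of the 15 S members for each class and library with at least 50 cells. Points are shares and lines exact 95% Poisson intervals of counting error; G2M shares of fibroblast-like cells run from 0.00187% to 0.0492% over the libraries, and their S shares from 0.0221% to 0.0286%.

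Each of the 40 members had its highest level in T/NK-like cells when all libraries were pooled, against 12.0% of the 19035 genes tested. That count rested on library 4, which held 1403 of the 1861 T/NK-like cells. Among the classes of library 4, T/NK-like cells were again the highest for 40 of 40, against 21.9% of genes. In library 1 they were the highest for 23 (14.0% of genes) and dendritic-like cells for 10 (7.52%). In library 2 macrophage-like cells were the highest for 15 (9.70%) and T/NK-like cells for 13 (19.6%), of which 6 were G2M members, where nearly all T/NK-like cells were of the subset with endothelial markers. In library 3 T/NK-like cells were the highest for 16 (11.1%) and smooth muscle-like cells for 14 (13.6%). Without library 4, dendritic-like cells were the highest for 14 (6.20% of genes) and T/NK-like cells for 12 (10.6%).

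The lead of T/NK-like cells differed from member to member. Levels below are in CPM, the UMIs of a gene scaled to a fixed total of UMIs in each class. Rrm2, the regulated subunit of ribonucleotide reductase, had the widest lead, 162 CPM against 26.8 CPM in dendritic-like cells, or 6.04 times. Ccna2 was at 101 CPM against 20.3 CPM in Schwann-like cells (4.96 times) and Mcm6 at 164 CPM against 34.7 CPM in dendritic-like cells (4.73 times). Mki67 was at 310 CPM against 93.9 CPM, and Top2a at 336 CPM against 89.5 CPM, both over dendritic-like cells. At the other end, Prc1 led by 1.53 times (59.7 against 39.1 CPM in Schwann-like cells), Pcna by 1.54 times (180 against 116 CPM in endothelial-like cells) and Slbp by 1.58 times (195 against 123 CPM in B-like cells). Pcna was detected in 16148 cells and Slbp in 18042, against 2999 for Mki67. By library, Pcna in endothelial-like cells was at 129, 127, 107 and 72.9 CPM and Slbp at 133, 126, 110 and 61.2 CPM, levels that did not rise in library 3, where Mki67 stood at 62.3 CPM against 1.5, 0.876 and 4.91 CPM in libraries 1, 2 and 4.

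**Figure D3:**
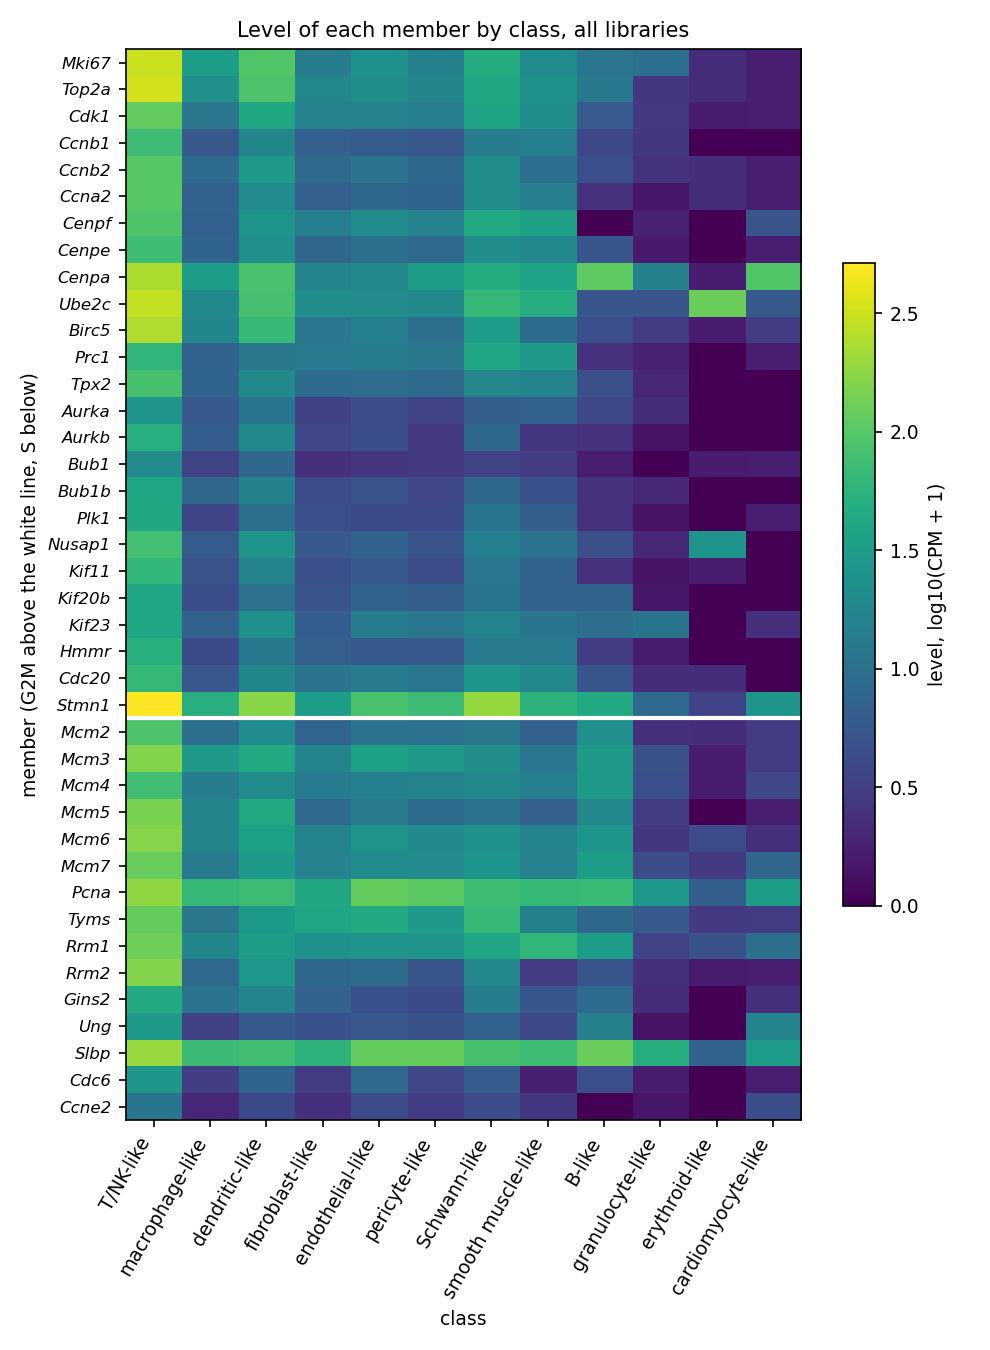
Level of each of the 40 members, as log10(CPM + 1), in the 12 classes with all libraries pooled. Rows above the white line are G2M members and rows below it S members; the T/NK-like column is the brightest in every row, and Cenpa in B-like and cardiomyocyte-like cells and Ube2c in erythroid-like cells stand apart from the other G2M members of their columns.

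A few members left the common pattern in single classes. Cenpa, the centromeric histone H3, was at 94.2 CPM in cardiomyocyte-like cells (79.1 to 111), where 25% of the cells held a UMI, although 1 of the 380 cells held Mki67. It was also at 109 CPM in B-like cells, with a UMI in 35.9% of cells. In T/NK-like cells Cenpa was at 111, 139, 107 and 254 CPM in libraries 1 to 4, and it was not lower in library 2, where Ccna2, Aurkb, Plk1 and Hmmr had no UMI among 162 cells. Ube2c, the ubiquitin-conjugating enzyme of the anaphase-promoting complex, was at 125 CPM in erythroid-like cells (108 to 144) with a UMI in 37.4% of them, and Nusap1 was at 24.3 CPM there, while Top2a was found in 2 of the 227 cells. Granulocyte-like cells of library 1 had Ube2c at 121 CPM from 50 UMIs of a single cell, and Kif23 at 55.6 CPM spread over 18.6% of the 97 cells. Rrm1 reached 103, 27.9 and 61.2 CPM in smooth muscle-like cells of libraries 1 to 3, above its 56.1, 16.3 and 49.7 CPM in T/NK-like cells of the same libraries, while Rrm2 stayed at 2.53, 0.672 and 2.80 CPM in those smooth muscle-like cells.

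Within T/NK-like cells the members parted by library as well. Cdk1 was at 39.5, 1.36, 24.8 and 125 CPM in libraries 1 to 4, Birc5 at 59.0, 0, 48.4 and 267 CPM, and Rrm2 at 32.4, 1.36, 34.8 and 180 CPM. Each was near 0 in library 2, where 156 of the 162 cells were of the subset with endothelial markers, and highest in library 4. Mcm6 was at 85.6, 19.1, 68.3 and 178 CPM and Pcna at 110.0, 73.5, 113 and 190 CPM, in the same pattern with a smaller spread. Slbp was at 188, 158, 173 and 198 CPM, nearly level.

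Over the 34 combinations of class and library with at least 50 cells, the level of each member was ranked beside the summed level of the other G2M members. Stmn1 was left out of that sum. Spearman's rho ran from 0.589 (Cenpa) to 0.893 (Cenpe) for the G2M members, with Cdk1 at 0.890 and Top2a at 0.887. For the S members it ran from 0.165 (Slbp) and 0.174 (Pcna) to 0.712 (Rrm2), with Gins2 at 0.667 and Mcm5 at 0.630. The values describe 34 points that share 4 libraries and their depths, and carry no test.

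In cells marked by Mki67 and Top2a, the other G2M members had larger median folds than the S members. Cells with both Mki67 and Top2a UMIs were set against cells with neither in each class and library with at least 50 of the former, as a fold of pooled CPM with 1 CPM added. Mki67 and Top2a chose the cells and are left out, which leaves 38 members. Both are G2M members, so the choice itself favours the G2M list. The folds therefore cannot show whether S members stand together less than G2M members.

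In T/NK-like cells of library 4, all 38 were at least 2-fold higher in the 522 cells with both UMIs than in the 618 with neither, against 5.18% of all genes tested. The median fold was 18.2 for the G2M members and 4.99 for the S members, and 0.913 for all genes. Among the G2M members, Hmmr (88.2 against 1.01 CPM, 44.3-fold) and Ccna2 (167 against 3.25 CPM, 39.7-fold) had the largest folds, and Kif23 (6.88-fold) and Cenpa (337 against 76.9 CPM, 4.34-fold) the smallest. Among the S members, Rrm2 (269 against 8.93 CPM, 27.2-fold) and Cdc6 (42.9 against 1.83 CPM, 15.5-fold) led, and Slbp (2.25-fold) and Ung (2.23-fold) came last. The cells with both UMIs were deeper, at a median of 23557 UMIs against 6560 in cells with neither.

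In endothelial-like cells of library 3, 36 of the 38 were at least 2-fold higher in 169 cells than in 3575, against 3.97% of genes. The G2M median was 49.8, led by Cenpf (477 against 2.92 CPM, 122-fold) and Ube2c (445 against 3.86 CPM, 91.7-fold). The S median was 3.56, and Pcna (158 against 100.2 CPM, 1.57-fold) and Slbp (181 against 103 CPM, 1.75-fold) were below 2-fold. Here too Rrm2 was the highest S member (130.0 against 3.49 CPM, 29.2-fold).

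In macrophage-like cells of library 3, all 38 were at least 2-fold higher in 56 cells than in 895, against 6.14% of genes, with medians of 45.6 for the G2M and 4.07 for the S members. Birc5 (377 against 1.44 CPM) and Ube2c (527 against 2.61 CPM) had the largest folds there. In macrophage-like cells of library 4 the count was 37 of 38, in 196 cells against 4326, and 3.83% of genes passed. The G2M median was 12.2 and the S median 6.00, and Slbp (101 against 70.5 CPM, 1.42-fold) fell short. Ccnb1 was at 28.5 CPM in these cells of library 4 and at 103 CPM in those of library 3, and Cdk1 at 66.9 against 264 CPM.

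**Figure D4:**
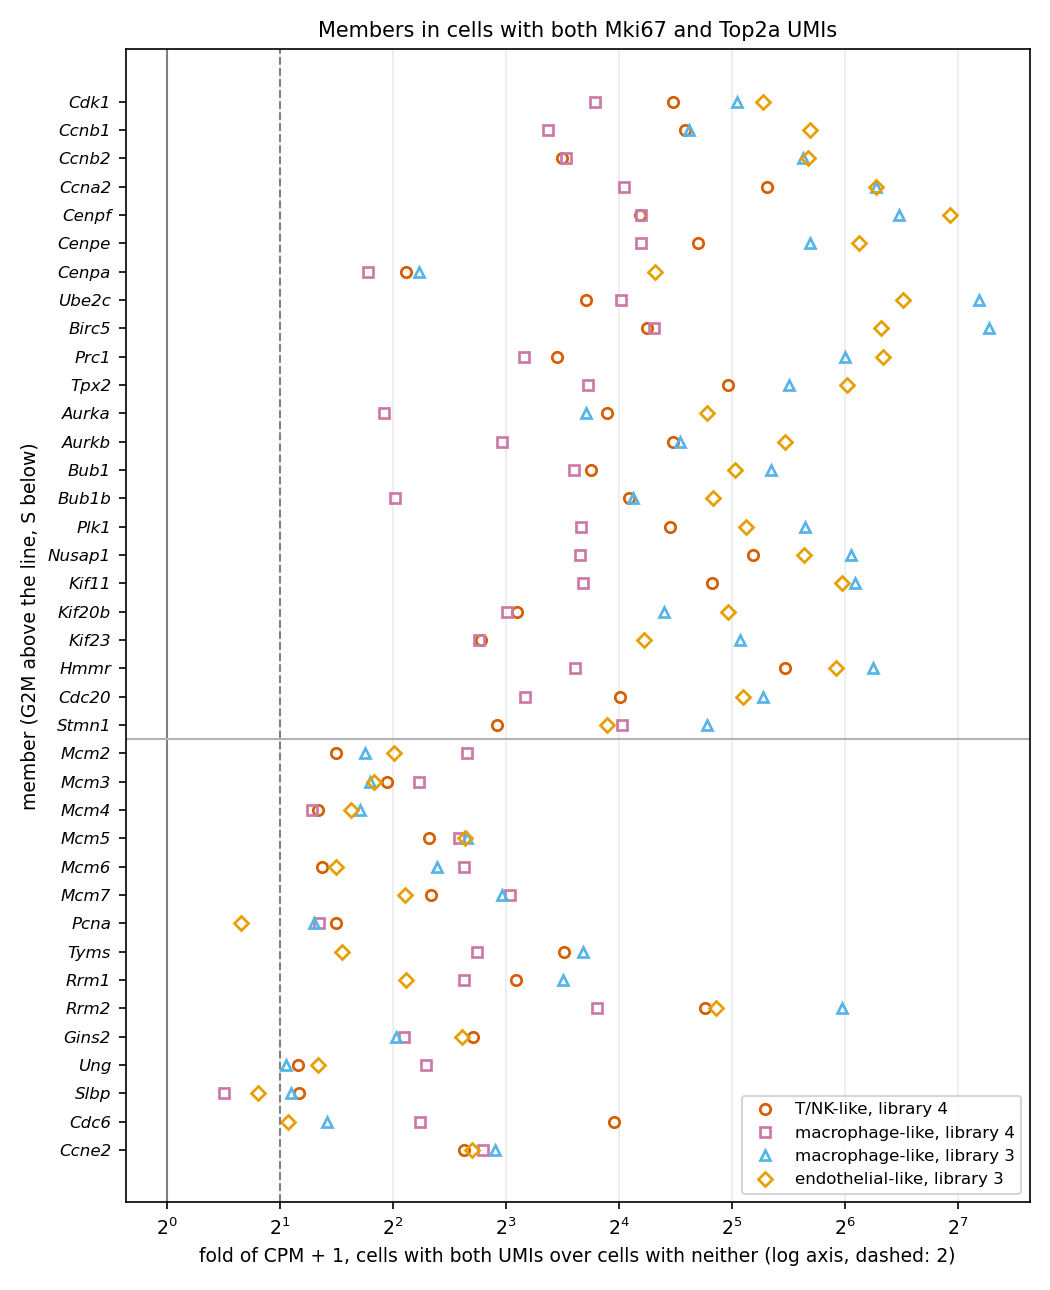
Fold of CPM + 1 (log axis) of 38 members in cells with both Mki67 and Top2a UMIs over cells with neither, in 4 combinations of class and library. The dashed line marks 2-fold; G2M members lie above the horizontal line and reach 155-fold, while S members other than Rrm2 lie between 1.42-fold and 15.5-fold.

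Cells with both UMIs held a varying share of the UMIs of the other 23 G2M members. In T/NK-like cells of library 4 they were 37.2% of the cells, with 63.4% of all UMIs, and held 92.8% of the UMIs of those members and 84.7% of those of the S members. In endothelial-like cells of library 3 they were 4.20% of the cells, with 10.2% of all UMIs, and held 78.4% of the G2M and 25.3% of the S UMIs. In endothelial-like cells of libraries 1 and 4, with 3 and 4 such cells, they held 14.9% and 18.9% of the G2M UMIs. In fibroblast-like cells they held 80.1% of the G2M UMIs in library 3 and 83.6% in library 4, and 10.8% and 1.26% in libraries 1 and 2, with 2 cells and 1 cell. In macrophage-like cells they held 76.9%, 50.6%, 73.0% and 42.6% in libraries 1 to 4, and library 4 was the lowest. Most S UMIs of the endothelial-like cells of library 3 thus lay in cells without both Mki67 and Top2a UMIs, and most of those of the T/NK-like cells of library 4 in cells with both.

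The number of other G2M members found per cell, after thinning to 1000 UMIs, separated cells with both UMIs from the rest. In T/NK-like cells of library 4 a cell with both had 3.12 of the 23 on average, a cell with Mki67 alone 1.00, a cell with Top2a alone 0.576 and a cell with neither 0.342. In endothelial-like cells of library 3 the averages were 4.53, 0.789, 0.215 and 0.131, and in fibroblast-like cells of library 3 they were 4.66, 0.188, 0.0769 and 0.0452. In macrophage-like cells of library 3 they were 3.16, 0.264, 0.176 and 0.128. In macrophage-like cells of library 4 they were 0.857, 0.131, 0.153 and 0.106, so cells with Mki67 alone, 841 of them, were near cells with neither.

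At full depth the same contrast appeared in the median number of the 23 found in a cell with both UMIs, which was 18 in T/NK-like cells of library 4, 19 in endothelial-like cells of library 3, 21 in fibroblast-like cells of library 3 and 17.5 in macrophage-like cells of library 3. In macrophage-like cells of library 4 it was 2, and 31.1% of the 196 cells held 5 or more, against 78.6% to 93.6% in the other 4. Those macrophage-like cells had a median of 23715 UMIs, and those of library 3 had 21920; the part of depth was not tested. Library 4 held 522 T/NK-like cells rich in these transcripts. Whether free RNA reached the macrophage-like cells was not tested. The cells of library 4 named granulocyte-like, erythroid-like and cardiomyocyte-like numbered 7, 1 and 5. A further 930 cells of library 4 were unnamed. How many of them were of the unnamed cluster with granulocyte markers is not given. B-like cells of library 4 had Mki67 in 8 of 130 cells and Top2a in 4, at a median of 3980 UMIs, and both in 0.

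**Figure D5:**
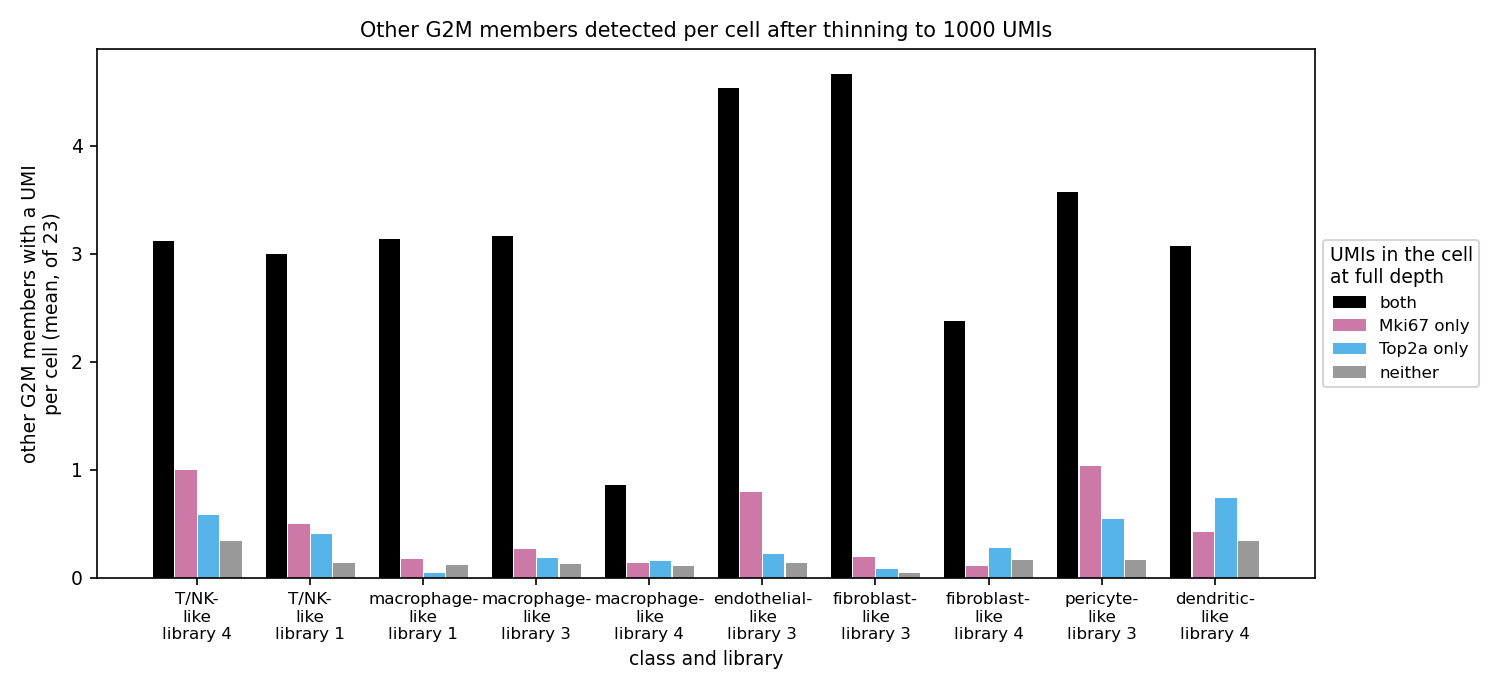
Mean number of the 23 other G2M members with a UMI per cell after thinning to 1000 UMIs, by the Mki67 and Top2a UMIs that the cell held at full depth, in 10 combinations of class and library. Bars are means over cells, which are not replicates, so no error is drawn; cells with both UMIs stand at 2.38 to 4.66 except in macrophage-like cells of library 4 (0.857).

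Cell by cell, at 1000 UMIs, the Pearson correlation of Mki67 and Top2a was 0.476 in endothelial-like cells of library 3, 0.389 in T/NK-like cells of library 4, 0.206 in macrophage-like cells of library 3 and 0.0864 in macrophage-like cells of library 4. The summed G2M and S members correlated at 0.204, 0.337, 0.329 and 0.126 in the same cells. These values over 1133 to 5861 cells of a single library describe sparse counts and carry no test.

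Mki67 also differed from the other G2M members in how much of their sum it made up. It gave 9.02% to 13.9% of the G2M UMIs in macrophage-like cells and 9.94% in T/NK-like cells of library 4. In endothelial-like cells it gave 1.3% and 1.36% in libraries 1 and 2 and 8.03% in library 3. In granulocyte-like cells it gave 16.9% in library 2 (13.3 to 21.1) and 22.8% in library 3 (16.2 to 30.5), where Top2a gave 1.06% and 2.07%. In library 1, where 1 cell held most G2M UMIs, Mki67 gave 4.56% and Top2a 5.26%.

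Within T/NK-like cells the members differed between subsets, which were again clustered without the cell cycle genes. An unnamed subset led by Ifng, Ccl3, Zbtb32 and Xcl1 had the highest share of cells with both UMIs, 61.4% of 363 cells (56.2 to 66.5), all of library 4 and with a median of 25240 UMIs. Regulatory T-like cells followed with 38.0% of 284 cells, then NK-like cells led by Gzma and Gzmc, nearly all of library 4, with 30.7% of 280. An unnamed subset led by Ly6c2 and Cd8b1, with the myeloid genes H2-Aa and Lyz2 among its leading genes, had 23.1% of 459. The subset led by S100a8 and Fabp4 had 0 of 170, which allows up to 1.76%, and the one led by haemoglobin genes 2.74% of 146. NK-like cells led by Spp1 and Ncr1, most of them from library 1, had 8.49% of 106, and gamma-delta T-like cells 3.77% of 53. At 1000 UMIs the order of the first 3 changed, with both UMIs in 9.09% of the Ifng subset, 10.9% of the regulatory T-like cells and 7.50% of the Gzma subset. The G2M share of UMIs was 0.328%, 0.407% and 0.324% in these 3, and the S share 0.207%, 0.188% and 0.148%.

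Among macrophage-like and dendritic-like cells, a subset led by Ccl8, Fcgr4 and C1q genes had both UMIs in 15% of 440 cells, of which 439 were in library 4, at a median of 26679 UMIs in that library. Dendritic-like cells led by Cd209a and Xcr1 had 8.76% of 388 and a G2M share of 0.0990%, the highest G2M share among these subsets. Resident-like macrophages led by Fcrls and Cx3cr1 had 4.64% of 1314, and their G2M share was 0.0684%. The infiltrating-like macrophages, 3219 and 1951 cells of library 4 but for 2, had 2.70% and 1.49% and G2M shares of 0.0126% and 0.0112%. Resident-like macrophages led by Cd163 and Lyve1, of which 260 of 264 came from library 2, had 1 cell with both UMIs and a G2M share of 0.00532%.

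Among endothelial-like cells, the subset led by Col15a1 and Aplnr had both UMIs in 5.53% of 1665 cells, 1527 of them of library 3, and lymphatic-like cells in 4.6% of 174. Arterial-like cells had 1.10% of 907, and neither of the capillary-like subsets, 2515 and 1037 cells and all but 1 of library 2, held any, which allows up to 0.119% and 0.289%. Their S shares were 0.0482% and 0.0342%, beside 0.0539% in the Col15a1 subset, so that S members were read in cells that had no Mki67 with Top2a. Among fibroblast-like cells, a small subset led by the mesothelial genes Msln, Krt8 and Upk3b had both in 7 of 39 cells, and the subset with Postn and Cthrc1 had 3.57% of 701.

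The rest of the cell cycle genes were read from lists of 50 replication genes, 66 mitosis genes (65 in the file and tested), 22 chromatin and tubulin genes, 12 genes of G1 entry and 16 cell cycle inhibitors. T/NK-like cells had the highest level for 45 of 50 replication genes, 59 of 65 mitosis genes, 17 of 22 chromatin and tubulin genes, 6 of 12 G1 genes and 0 of 16 inhibitors, beside the 12.0% of all genes given above. The 16 inhibitors took 0.505% of UMIs in granulocyte-like cells, 0.475% in smooth muscle-like, 0.473% in pericyte-like and 0.404% in endothelial-like cells. T/NK-like cells were at 0.181%, and only cardiomyocyte-like (0.113%) and erythroid-like cells (0.0182%) were lower among the named classes. Cdkn1a, the p21 inhibitor of cyclin-dependent kinases, was at 1116 CPM in endothelial-like cells and at 74.7 CPM in T/NK-like cells. Ccnd1, the D-type cyclin that starts G1 in many tissues, was at 297 CPM in endothelial-like cells and 7.03 CPM in T/NK-like cells, while Ccne1 was at 34.8 CPM in T/NK-like cells and at most 7.76 CPM elsewhere.

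In cells with both UMIs, 42 to 48 of the 50 replication genes and 54 to 64 of the 65 mitosis genes were at least 2-fold higher over the 4 comparisons, beside 3.83% to 6.14% of all genes. The median fold of the mitosis genes was 10.4 in T/NK-like cells of library 4, 22.1 in endothelial-like cells of library 3, and 16.3 and 6.43 in macrophage-like cells of libraries 3 and 4. Pbk (69.4-fold) and Cdca3 (61.1-fold) were the highest in endothelial-like cells, and Kif4 (31.1-fold) and Fbxo5 (27.4-fold) in T/NK-like cells. Pttg1, securin, had the smallest fold of the mitosis list in all 4 comparisons, 0.708 to 1.05. Its level was highest in cardiomyocyte-like cells, at 223 CPM, beside 57.9 CPM in T/NK-like cells.

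Among the replication genes, Tk1 had 48.7-fold in endothelial-like cells, 40.3-fold and 14.4-fold in macrophage-like cells of libraries 3 and 4, and Rad51ap1 (18.4-fold) and Clspn (18.0-fold) led in T/NK-like cells. The replication-dependent histone genes Hist1h1b and Hist1h2ap were the highest of the chromatin list in each comparison, 8.27-fold to 73.5-fold, and the linker histone Hist1h1c was the lowest in each, 0.761 to 1.90.

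The genes of G1 entry did not share the pattern: 1 or 2 of 12 were at least 2-fold higher in each comparison, with medians of 1.08 to 1.22. Rbl1 (p107) was at 2.33-fold in T/NK-like cells, 3.11-fold in endothelial-like cells, and 4.31-fold and 1.77-fold in macrophage-like cells of libraries 3 and 4. Ccnd2 was lower in cells with both UMIs among T/NK-like cells (153 against 336 CPM) and endothelial-like cells (156 against 294 CPM). In macrophage-like cells of library 4 it was at 0.852-fold. Ccnd1 went both ways, at 0.300-fold in T/NK-like cells and 2.72-fold in macrophage-like cells of library 4. Of the inhibitors, 1 to 3 of 16 were at least 2-fold higher. Cdkn2c (p18) was among them in each comparison, at 3.10-fold in T/NK-like cells, 9.77-fold in endothelial-like cells and 6.62-fold and 7.10-fold in macrophage-like cells of libraries 3 and 4. In T/NK-like cells of library 4, 5 of the 16 inhibitors were at least 2-fold lower in cells with both UMIs, against 7.83% of all genes tested. Among them were Btg1, an antiproliferative gene of resting lymphocytes, at 365 against 1119 CPM (0.326-fold) and Gadd45a at 0.420-fold. The T/NK-like cells of library 4 include 455 cells of the subsets with markers of other classes, of which 106 held both UMIs. Only the count of the 38 members was redone without these subsets. Their part in the folds of the G1 genes and inhibitors of T/NK-like cells was not tested. In endothelial-like cells of library 3 the count was 1 of 16, beside 236 of 16058 genes. In macrophage-like cells it was 1 in library 3 (714 of 14965 genes) and 0 in library 4 (34 of 14965).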

How the data were processed

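Single-cell libraries of 4 heart grafts were made with the 10x Genomics 3′ kit. The authors deposited UMI counts per gene and cell, not normalized, as 1 merged matrix of 53824 cells. Per the file headers and the study's methods, reads were aligned and counted with Cell Ranger 3.0.0 on mm10, and the submitters' processing notes name CASAVA 1.8. Counts keep 3′ ends only, so levels are not compared per length between genes.

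Cells with more than 200 genes and under 20% mitochondrial UMIs were kept, as in the study (44626 cells), and mitochondrial genes were removed. The 5% of cells nearest to simulated doublets were taken out, a step in which the cell cycle genes were not left out. After scaling to 10000 UMIs, 10 principal components of 2000 variable genes, without 205 cell cycle genes (206 listed, 1 not found), were clustered by the Leiden algorithm at resolution 0.8 into 27 clusters. A cluster was named "-like" for the class with the largest share of its listed markers detected in at least 10% of its cells and 2-fold above the other clusters, with at least 3 such markers and no other class leading its top 10 genes. Subsets were clustered again within a class at resolution 0.5. Python 3.11.15, scipy 1.17.1, scikit-learn 1.9.0 and leidenalg 0.10.2 were used, and the scripts were tested on simulated data.

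Shares have exact Clopper-Pearson and levels exact Poisson 95% intervals. Where 0 cells are said to allow up to a share, the limit is 3 cells of the total, which is below the two-sided exact limit. Such intervals and limits cover counting error only. Cells are not replicates, and with no map from barcode numbers to grafts no test was made. A gene entered a fold comparison if detected in at least 10 of the cells. The text names the 40 members, of each other list the 2 highest and 2 lowest folds, and genes that lead clusters; Cdkn1a, Ccnd1, Ccnd2, Ccne1, Rbl1 and the members that leave the pattern in single classes were chosen after their values were seen. The members, lists and comparisons were chosen with earlier results of these data known. Alternatives changed the filters, doublets, depth, clustering, libraries and members used.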

Additional observations from a re-analysis of the deposited data

Results flagged for a closer look

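Cells that the comparisons left out also held the members. Both Mki67 and Top2a were found in 130 of the 2231 cells marked as doublets (5.83%, exact 95% interval 4.89 to 6.88), against 0.0645% of granulocyte-like cells and 2.69% of the cells kept. By library these were 3, 1, 36 and 90 cells, or 0.581%, 0.152%, 7.32% and 15.9% of the marked cells. Of the cells kept, 0.439%, 0.0720%, 3.42% and 7.17% held both in libraries 1 to 4. The granulocyte-like value rests mostly on library 2, with 2743 of the 3103 cells. The marked cells had a median of 14446 UMIs, against 6440 in the cells kept and 3733 in granulocyte-like cells. Both genes were also found in 183 of the 9198 cells that failed the limits on genes or mitochondrial UMIs (1.99%, 1.71 to 2.30). Those 9198 cells had a median of 1071 UMIs, and 117 of the 183 were in library 4.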

How the results depend on the processing

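No paired analysis was possible because no cell can be given to a graft. Of 90 recomputed values, 51 stayed within the counting interval of the reported value (counts within 1.5 times). The shares of all cells with Mki67, Top2a or both do not use the classes. Changes of the clustering alone could therefore not move them, and such values are among the 51. Without library 4 the 2-fold count, 36, was taken in endothelial-like cells of library 3 and not in T/NK-like cells. Mki67, Top2a and both were found in 7.45%, 6.73% and 2.88% of cells with at least 500 genes. With doublets kept, Mki67 was at 7.34%, Top2a at 6.63%, and the G2M and S shares of T/NK-like cells at 0.288% and 0.154%. Thinning to 1000 UMIs gave 1.77%, 1.64% and 0.565% of cells and 0.189% and 0.106% of UMIs. The G2M share was 0.314% with cell cycle genes kept for clustering and 0.261% without Stmn1. Equal weight for libraries gave 0.145% and 0.0926%, and was not run for the 2-fold count, which rests on 1 library. With 775 cells of 3 T/NK-like subsets that carried markers of other classes left out, chosen after seeing the data, the shares were 0.331% and 0.183%. The largest of these subsets, with 459 cells, also had Cd8b1 and Cd8a among its leading genes. With each library left out in turn, cells with Mki67 ranged from 3.40% to 9.51%, with Top2a from 3.36% to 8.51% and with both from 1.17% to 3.79%. The highest G2M share of a class ranged from 0.0950% (dendritic-like, without library 4) to 0.323%, the S share from 0.0690% to 0.168%, and members highest in 1 class from 14 (dendritic-like, without library 4) to 40. Library 4 gave the low end of each range. Leaving out barcodes shared by libraries, also chosen after seeing the data, moved nothing beyond these limits. The share of cells with a UMI depends on depth, and shares under about 1% in shallow classes rest on a few cells.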
